A study of Mus musculus with 31 samples.

Results

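The 4 tissue inhibitors of metalloproteinases, Timp1, Timp2, Timp3 and Timp4, were taken by gene symbol from RNA-seq libraries of sorted mouse astrocytes, 4 genes of the 55401 measured. All 4 passed the filter on low counts and were among the 14490 genes tested. The family was chosen by the measured difference of Timp1 between these groups, so the values of Timp1 are a description with no test, and the other 3 members entered by name. The libraries came from female C57Bl/6 mice of 10 weeks, 3 libraries in each of 4 groups, all titled SPF and, per the growth protocol, housed free of pathogens. Mice labelled 2X cytokine received IL-1β at 100 ng/mL with TNF-α at 50 ng/mL into the lateral brain ventricles on 2 occasions, the last on day 7. Mice labelled 2X PBS received PBS alone on both occasions. Mice labelled 1X cytokine received the same cytokines, and mice labelled 1X PBS received PBS, once, on day 7. Astrocytes were sorted 18 to 24 hours after the last injection, so all mice had a ventricular injection within a day of the sort. The treatment protocol names both cytokines, whereas another label names TNF-α alone. The labels do not say whether each library was 1 animal or a pool. How the cells were gated is not stated in the labels, and the 19 ATAC-seq samples were not analysed here.

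TIMPs are small secreted proteins that bind the active site of matrix metalloproteinases (MMPs) and so limit the breakdown of the matrix around cells. They differ in range and place. TIMP1 is an inducible inhibitor that also binds pro-MMP9, TIMP2 takes part with MMP14 in the activation of pro-MMP2, TIMP3 is bound to the matrix and also inhibits ADAM17 and several ADAMTS proteinases, and TIMP4 has a narrower tissue range that includes the brain. In cultured human astrocytes, IL-1β is known to raise TIMP1. Reactive astrocytes are known for high Gfap, an intermediate filament, and for high Lcn2, an acute-phase protein that inflammatory cytokines induce.

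Each Timp gene except Timp2 lies inside a synapsin gene on the opposite strand, as annotated in GENCODE M21 on GRCm38. Timp1 spans X:20870166-20874735 on the plus strand inside Syn1, Timp3 spans 10:86300372-86349506 on the plus strand inside Syn3, and Timp4 spans 6:115241892-115252205 on the minus strand inside Syn2. Timp2 spans 11:118301069-118355740 on the minus strand and holds Cep295nl. No Timp1 or Timp2 exon overlapped an exon of these neighbours, and 1 of 12 annotated Timp3 exons and 1 of 9 Timp4 exons did. Whether reads were assigned by strand is not stated in the labels. Syn2 lay between 7.65 and 22.4 CPM (counts on a common scale of library totals) across the 12 libraries. Syn1 had 10.4, 10.9 and 9.60 CPM in libraries labelled 2X cytokine, against 6.77, 6.51 and 7.11 CPM in those labelled 2X PBS. Timp1 had 17.5, 6.03 and 11.1 CPM in libraries labelled 2X cytokine, but CPM does not account for the lengths of these genes. Per transcript length (TPM), Timp1 had a mean of 26.8 in libraries labelled 2X cytokine, and Syn1 had a mean of 3.28 over the 12 libraries. The part of opposite-strand reads was not tested.

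The windows around the starts of Timp1 and Timp4 are shown because these members varied most between libraries. Each runs from 250 bases before the RefSeq start to 50 bases from it, 5′ to 3′ on the gene's strand (GRCm38.p6), and capitals mark the motif matches described after them. The Timp1 window is chrX:20869916-20870215 on the plus strand and the Timp4 window is chr6:115252156-115252455 on the minus strand.

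Timp1: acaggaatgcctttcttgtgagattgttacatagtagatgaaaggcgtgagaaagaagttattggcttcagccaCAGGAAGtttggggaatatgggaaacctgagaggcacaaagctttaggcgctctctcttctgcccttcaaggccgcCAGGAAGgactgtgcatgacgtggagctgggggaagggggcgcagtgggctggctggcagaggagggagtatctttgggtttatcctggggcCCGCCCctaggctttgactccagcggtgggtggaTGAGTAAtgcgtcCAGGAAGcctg

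Timp4: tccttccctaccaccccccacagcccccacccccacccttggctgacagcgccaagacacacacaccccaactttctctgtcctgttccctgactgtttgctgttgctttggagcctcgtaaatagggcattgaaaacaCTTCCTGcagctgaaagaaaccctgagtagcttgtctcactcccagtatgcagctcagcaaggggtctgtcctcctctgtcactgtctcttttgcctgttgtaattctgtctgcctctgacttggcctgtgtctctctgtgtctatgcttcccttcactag

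Motifs were searched on both strands. These were the AP-1 letters TGANTCA, the AP-1-like letters TGAGTAA, the Ets letters CAGGAAG, the Sp1 letters GGGCGG, the Stat letters TTCNNNGAA and an NF-κB consensus. The Timp1 window held the Ets letters 3 times, the Sp1 letters once on the reverse strand and TGAGTAA once, 29 bases before the start of the transcript Timp1-201 and at base 27 of Timp1-202, whose start is the RefSeq start. The Timp4 window held the Ets letters once, on the reverse strand, and none of the other motifs. That match lies 111 bases before the start of Timp4-201, which is the RefSeq start, and 468 bases before that of Timp4-202. Over 32851 windows of the same length, 13.3% held the Ets letters, 35.7% the Sp1 letters, 2.68% TGAGTAA, 7.81% TGANTCA, 8.30% the Stat letters and 4.79% the NF-κB consensus. The CpG count also differed between members, with 8 in the Timp1 window, 25 for Timp2, 24 for Timp3 and 2 for Timp4, against a median of 7 over all windows. No 2 matches overlapped, and they describe the letters only.

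Some libraries stood apart from others with the same label, and every result on the 1X groups has to be read with that. Lcn2 had 15.0, 2.26 and 1.20 CPM in replicates 1 to 3 labelled 2X cytokine, against 570, 363 and 425 CPM in those labelled 2X PBS. It had 797, 11.5 and 3.85 CPM in the libraries labelled 1X cytokine, against 5.33, 1076 and 776 CPM in those labelled 1X PBS. Lcn2 was thus low in all libraries labelled 2X cytokine and high in all labelled 2X PBS, the opposite of the known response to these cytokines, and replicate 1 of each 1X group resembled the other 1X label. Gfap followed the same order, at 150, 119 and 113 CPM in the libraries labelled 2X cytokine against 1141, 1043 and 1095 CPM in those labelled 2X PBS. Whether the labels match the injections was not tested, and every group is named by the label of its libraries. Astrocyte markers were detected in every library, with a summed level of 2844 to 13761 TPM (a level per transcript length, on the same sum in each library) over 10 genes. Markers of choroid plexus and of erythrocytes were also high, the erythrocyte sum reaching 166592 TPM in 1X PBS replicate 3.

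The levels of the members were set side by side on the per-length TPM scale. In libraries labelled 2X cytokine, Timp4 led at 621 ± 60.5 TPM, followed by Timp3 at 193 ± 9.86 TPM (SD, n = 3). Timp1 at 26.8 ± 12.8 TPM and Timp2 at 24.2 ± 3.66 TPM came last and overlapped. In libraries labelled 2X PBS, Timp1 at 393 ± 48.4 TPM and Timp4 at 375 ± 48.8 TPM overlapped at the top, above Timp3 at 175 ± 9.35 TPM and Timp2 at 25.5 ± 0.18 TPM.

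The 1X groups spread more widely. In libraries labelled 1X cytokine, Timp4 at 412 ± 183 TPM, Timp3 at 192 ± 49.4 TPM and Timp1 at 191 ± 92.8 TPM overlapped with each other, and Timp2 was lowest at 31.8 ± 7.60 TPM. In libraries labelled 1X PBS, the range of Timp4 at 328 ± 319 TPM overlapped those of Timp1 at 261 ± 45.9 TPM and Timp3 at 148 ± 46.2 TPM. Timp1 stood above Timp3 in every library labelled 1X PBS. Within each library of both 1X groups Timp4 was above Timp3, though only at 120 against 116 TPM in 1X PBS replicate 3. Timp2 was again lowest, at 30.9 ± 5.62 TPM.

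**Figure D1:**
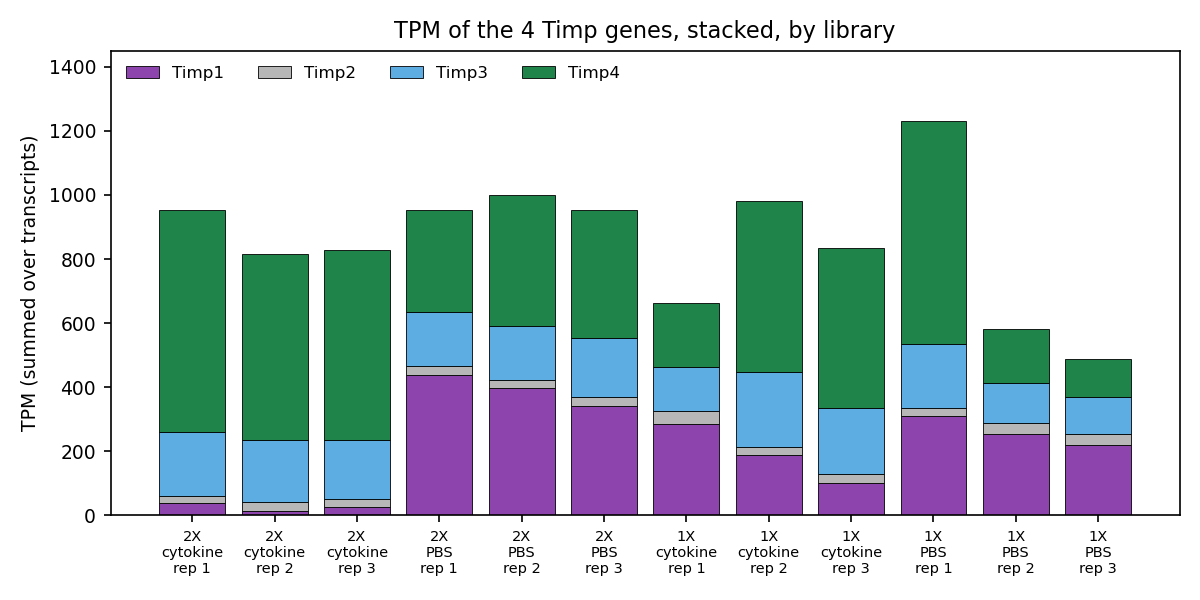
TPM of the 4 Timp genes, summed over their transcripts and stacked, in each of the 12 libraries (x axis, named by group and replicate). The y axis is TPM from 0; the Timp1 segment is thin in the 3 libraries labelled 2X cytokine, where Timp4 takes 71.1% to 72.6% of the stack.

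The sum of the 4 members differed less between the 2X groups than the make-up of that sum. It was 952, 815 and 828 TPM in libraries labelled 2X cytokine, against 954, 998 and 953 TPM in those labelled 2X PBS. The highest of the first group lay just below the lowest of the second. Timp1 made up 3.03 ± 1.23% of the sum in libraries labelled 2X cytokine and 40.6 ± 5.11% in those labelled 2X PBS (SD, n = 3 each), while Timp4 made up 71.8 ± 0.73% in libraries labelled 2X cytokine and 38.7 ± 4.59% in those labelled 2X PBS. Shares move together by construction, since a lower Timp1 raises the share of the others. The ratio of Timp1 to Timp4 TPM, which does not depend on the other members, was 0.0574, 0.0242 and 0.0448 in libraries labelled 2X cytokine, against 1.38, 0.974 and 0.858 in those labelled 2X PBS. It was 1.42, 0.351 and 0.200 in libraries labelled 1X cytokine, against 0.447, 1.50 and 1.83 in those labelled 1X PBS, so replicate 1 lay apart from replicates 2 and 3 in both 1X groups.

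Timp1, the inducible member, differed most between the 2X groups. Its expression was 17.5, 6.03 and 11.1 CPM in libraries labelled 2X cytokine, against 192, 180.4 and 158 CPM in those labelled 2X PBS. The groups did not overlap, as was the case for 25.3% of all genes, and all 3 libraries labelled 2X cytokine were low. These values rest on 49, 16 and 37 estimated counts in libraries labelled 2X cytokine, against 453, 1025 and 532 estimated counts in those labelled 2X PBS, above the floor of 3 counts. The log2 fold change was -3.93 ± 0.40 (SE, edgeR), a mean 15.2-fold lower in libraries labelled 2X cytokine.

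In the 1X groups, Timp1 had 135, 83.3 and 45.6 CPM in libraries labelled 1X cytokine, against 143, 124 and 129 CPM in those labelled 1X PBS. Replicate 1 labelled 1X cytokine lay within the 1X PBS range and the others below it, so the groups overlapped, as they did for all but 6.18% of genes. The log2 fold change was -0.57 ± 0.34. Timp1 was also lower in every library labelled 2X cytokine than in any labelled 1X cytokine, with a log2 fold change of -2.94 ± 0.39, or 7.66-fold lower; 12.5% of all genes did not overlap in this comparison. Between the controls it was higher in every library labelled 2X PBS than in any labelled 1X PBS, with a log2 fold change of 0.42 ± 0.33; 11.4% of all genes did not overlap there. The difference between the 2X and the 1X cytokine response was -3.36 ± 0.51 in log2. The comparisons share libraries, so they are not independent of each other.

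**Figure D2:**
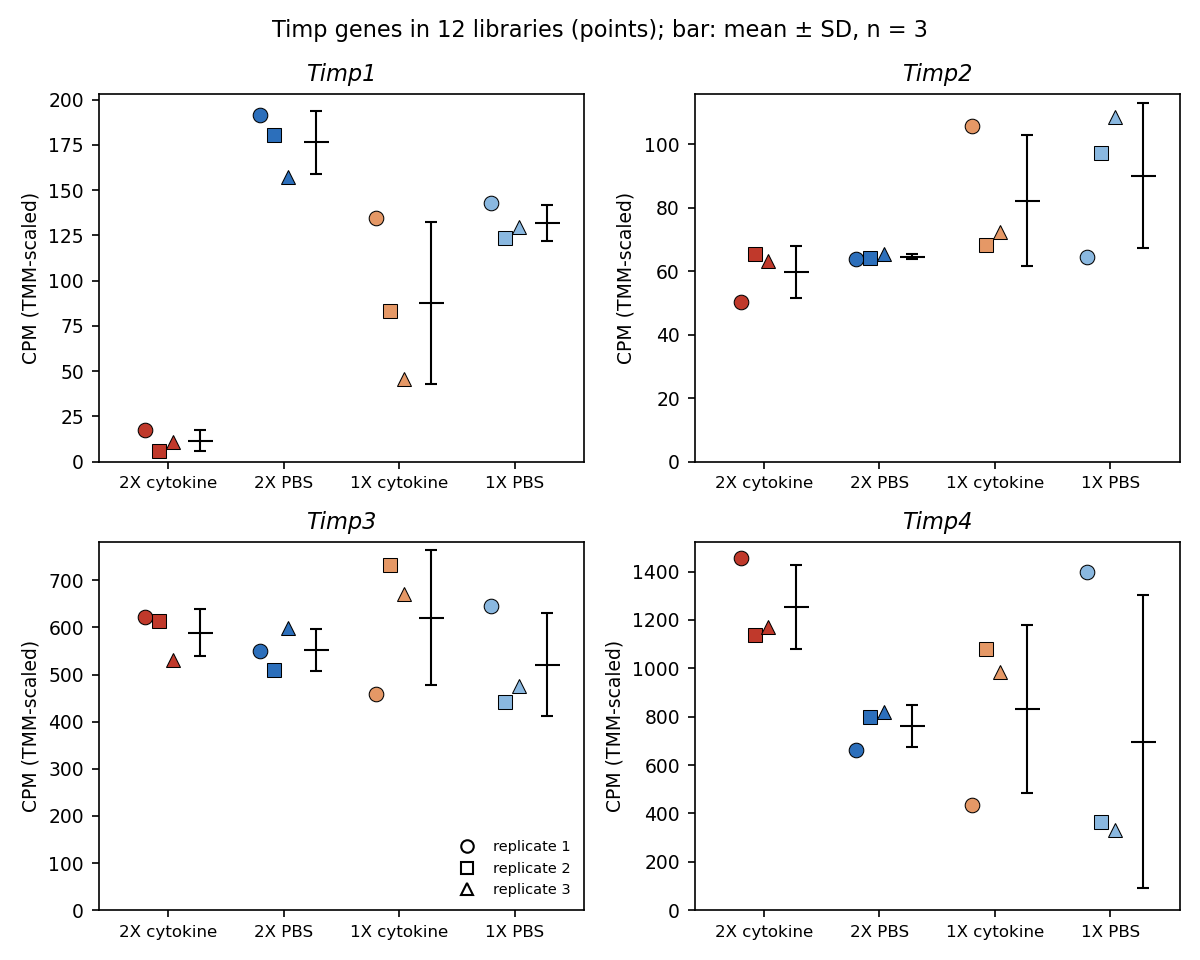
CPM of each Timp gene (y axis, from 0, on TMM-scaled library totals) in the 12 libraries, in 4 groups on the x axis; symbols mark replicates 1 to 3 and bars give mean ± SD (n = 3). Timp1 lies between 6.03 and 17.5 CPM in the 3 libraries labelled 2X cytokine and between 158 and 192 CPM in those labelled 2X PBS.

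Timp1 and Lcn2 did not order the libraries alike. The library 1X PBS replicate 1 had 143 CPM of Timp1 with 5.33 CPM of Lcn2 and 189 CPM of Gfap. The libraries labelled 2X cytokine, also low in Lcn2 and Gfap, had at most 17.5 CPM of Timp1. Replicates 2 and 3 labelled 1X cytokine had 83.3 and 45.6 CPM of Timp1 at 11.5 and 3.85 CPM of Lcn2. Timp4 ran the other way, at 1397 CPM in 1X PBS replicate 1 and at 434 CPM in 1X cytokine replicate 1, which had 797 CPM of Lcn2.

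**Figure D3:**
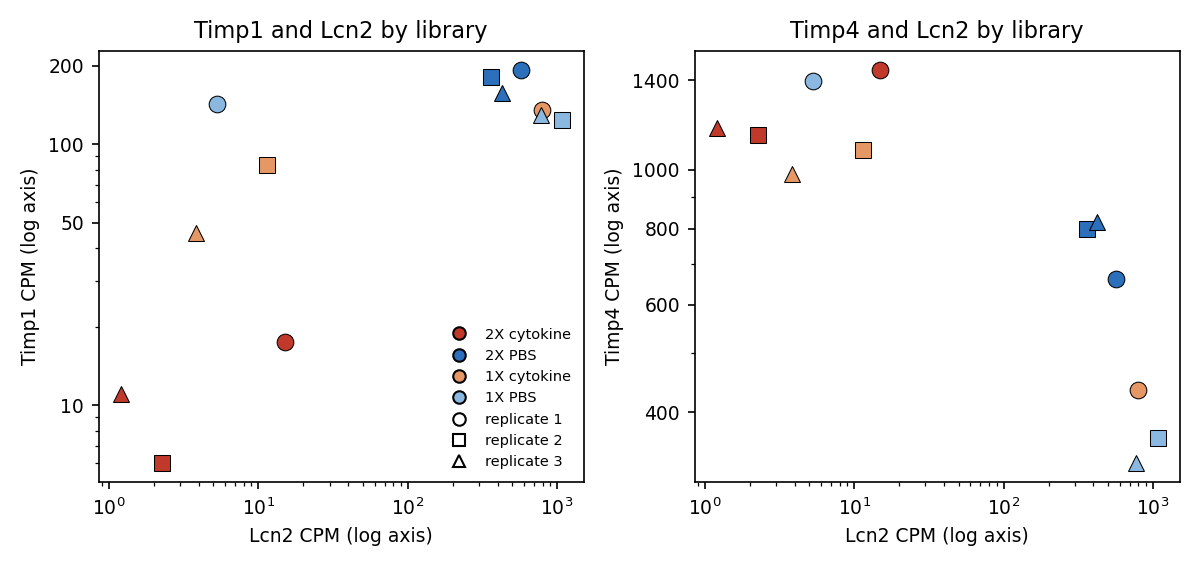
Timp1 (left) and Timp4 (right) CPM against Lcn2 CPM in each of the 12 libraries, on log axes; colours mark groups and symbols replicates 1 to 3. The library 1X PBS replicate 1 joins low Lcn2 (5.33 CPM) to high Timp1 (143 CPM), while Timp4 is at 1397 CPM there and at 434 CPM in 1X cytokine replicate 1, with 797 CPM of Lcn2.

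Timp4, the member with the highest mean TPM, was higher in every library labelled 2X cytokine. It had 1454, 1139 and 1170 CPM there, against 661, 800 and 819 CPM in libraries labelled 2X PBS. The groups did not overlap, as for 25.3% of all genes. The log2 fold change was 0.72 ± 0.49 in the fit of 12 libraries, which did not pass (adjusted p = 0.720, edgeR quasi-likelihood test with Benjamini-Hochberg adjustment). In that fit 0.0345% of all genes passed for this comparison. Fitted on the 6 libraries labelled 2X alone, the log2 fold change was 0.73 ± 0.12 and passed (adjusted p = 0.00237, edgeR), where 2.43% of all genes passed as higher. The biological coefficient of variation was 0.237 over the 12 libraries and 0.114 over those 6. The summed astrocyte markers were also higher, at 11107 to 13118 TPM in libraries labelled 2X cytokine against 9682 to 10668 TPM in those labelled 2X PBS, with 2 of 10 passing as higher and 1 as lower in the fit of 6, and their part in the Timp4 difference was not tested.

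Timp4 was more spread in the 1X groups. It had 434, 1078 and 984 CPM in libraries labelled 1X cytokine, against 1397, 363 and 330.3 CPM in those labelled 1X PBS. Replicate 1 was the lowest of the first group and the highest of the second. The log2 fold change was 0.26 ± 0.49 (adjusted p = 0.951, edgeR), in a comparison where 0% of genes passed. Without 1X PBS replicate 1 it was 1.29 and passed with edgeR, as did 7.55% of all genes, and without 1X PBS replicate 2 or 3 it was -0.047 or -0.080 and did not pass. The summed astrocyte markers moved with it, at 5354, 10939 and 11703 TPM in libraries labelled 1X cytokine against 13761, 3622 and 2844 TPM in those labelled 1X PBS. The neutrophil markers moved oppositely, at 1348, 41.2 and 51.7 TPM in libraries labelled 1X cytokine against 52.7, 2746 and 3018 TPM in those labelled 1X PBS, and the part of either in the Timp4 values was not tested. In bulk libraries, fewer cells of a type and less RNA per cell cannot be told apart.

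Timp4 was also higher in every library labelled 2X cytokine than in any labelled 1X cytokine, with a log2 fold change of 0.59 ± 0.49 that did not pass (adjusted p = 0.835, edgeR), in a comparison where 0.0276% of genes passed and 12.5% did not overlap. Libraries labelled 2X PBS lay inside the range of those labelled 1X PBS, with a log2 fold change of 0.13 ± 0.49 (adjusted p = 0.967, edgeR) and 0% of genes passing. Without 1X PBS replicate 1 that value was 1.16 and passed with edgeR, as did 7.39% of all genes, and without 1X PBS replicate 2 or 3 it was -0.18 or -0.21 and did not pass. The difference between the 2X and the 1X cytokine response was 0.47 ± 0.70 (adjusted p = 0.997, edgeR, 0% of genes passing) and -0.55 without 1X PBS replicate 1.

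Timp3, the matrix-bound member, had 622, 614 and 531 CPM in libraries labelled 2X cytokine, against 549.8, 510 and 599 CPM in those labelled 2X PBS. The groups overlapped. The log2 fold change was 0.09 ± 0.20 (adjusted p = 0.937, edgeR). It had 459, 732 and 671 CPM in libraries labelled 1X cytokine, against 646, 441 and 477 CPM in those labelled 1X PBS, and the groups overlapped. Replicate 1 again lay apart in both groups, in opposite directions, and the log2 fold change was 0.25 ± 0.20 (adjusted p = 0.879, edgeR). The 2X groups differed from their 1X counterparts by -0.08 ± 0.20 for cytokine (adjusted p = 0.961, edgeR) and 0.09 ± 0.20 for PBS (adjusted p = 0.930, edgeR) in log2.

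Timp2, the member with the lowest mean TPM in every group, had 50.3, 65.6 and 63.3 CPM in libraries labelled 2X cytokine, against 63.9, 64.3 and 65.4 CPM in those labelled 2X PBS. The groups overlapped, with replicate 1 labelled 2X cytokine the lowest. The log2 fold change was -0.11 ± 0.21 (adjusted p = 0.927, edgeR). It had 106, 68.4 and 72.5 CPM in libraries labelled 1X cytokine, against 64.7, 97.2 and 109 CPM in those labelled 1X PBS, with a log2 fold change of -0.13 ± 0.21 (adjusted p = 0.937, edgeR). Replicate 1 was the highest of the first group and the lowest of the second, the reverse of Timp4. Timp2 was lower in every library labelled 2X cytokine than in any labelled 1X cytokine, with a log2 fold change of -0.47 ± 0.21 that did not pass (adjusted p = 0.709, edgeR), where 12.5% of all genes did not overlap. Between the controls it was -0.49 ± 0.21 in log2 and did not pass either (adjusted p = 0.776, edgeR).

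With replicate 1 of both 1X groups left out, a choice made from their values and given with no test, the 1X response spread over the members. The log2 fold changes of 1X cytokine against 1X PBS were then -0.92 ± 0.26 for Timp1, -0.53 ± 0.14 for Timp2, 0.63 ± 0.12 for Timp3 and 1.59 ± 0.15 for Timp4 (SE). For 2X PBS against 1X PBS they were 0.50 ± 0.22 for Timp1, -0.65 ± 0.12 for Timp2, 0.29 ± 0.11 for Timp3 and 1.16 ± 0.14 for Timp4. The 2X cytokine against 2X PBS values stayed at -3.91 ± 0.26 for Timp1 and 0.73 ± 0.12 for Timp4. In this setting 23.5% of all genes passed in the 1X comparison, 18.6% in 2X PBS against 1X PBS, 7.02% in the 2X comparison, 0.0202% in 2X cytokine against 1X cytokine and 9.33% for the difference of responses.

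**Figure D4:**
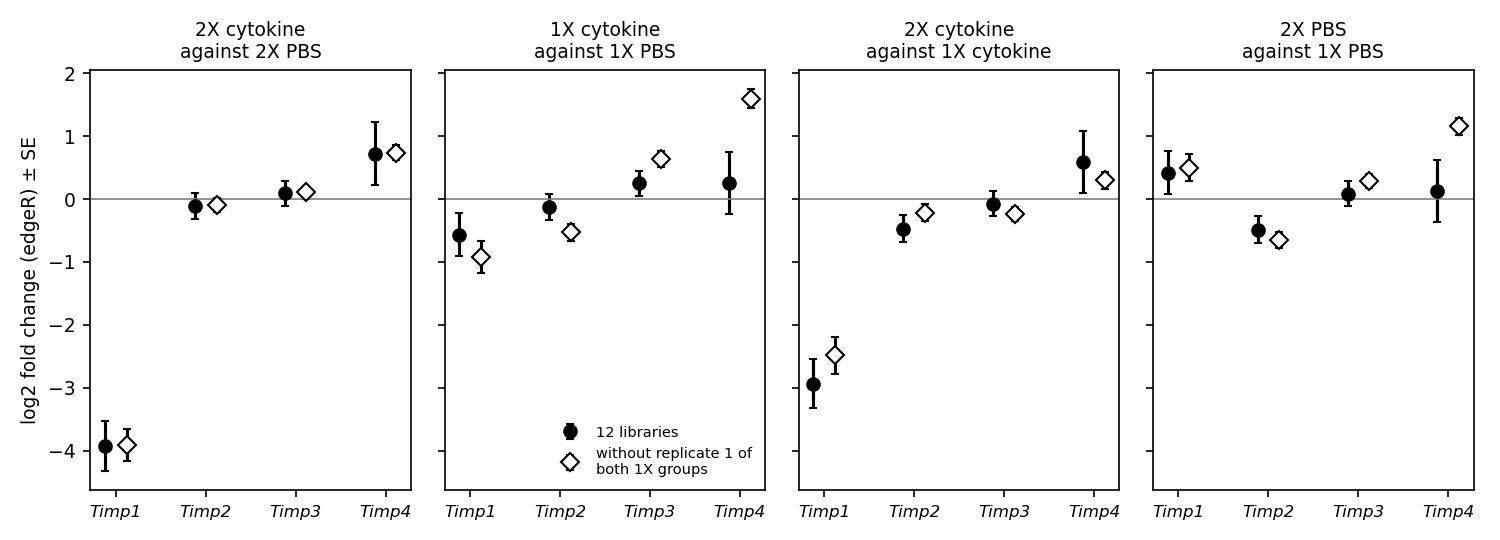
Log2 fold change ± SE (y axis) of each Timp gene in 4 comparisons, from edgeR on 12 libraries (filled circles) and without replicate 1 of both 1X groups (open diamonds). Timp1 is at -3.93 in 2X cytokine against 2X PBS and -2.94 in 2X cytokine against 1X cytokine, while Timp4 in the 1X comparison is at 0.26 with all libraries and 1.59 without the 2 left out.

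Each gene value sums over annotated transcripts. Timp1-201 took a median 63.3% of Timp1 TPM over the 12 libraries, from 47.7% to 100%, and Timp1-202, which starts 55 bases upstream, took the rest. The value of 100% was that of 2X cytokine replicate 3, on 37 counts. Timp2-201 took all of Timp2, with Timp2-202 listed at 0 in every library, and Timp3-201 took 90.1% to 98.6% of Timp3. Timp4 was divided between Timp4-201 at 41.3% to 48.2% and the shorter Timp4-202 at 51.8% to 58.7%. These divisions are model estimates of kallisto.

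Across the 12 libraries, Timp3 and Timp4 varied together and Timp2 varied against them. In log2 CPM, Pearson's r was 0.81 for Timp3 with Timp4, -0.89 for Timp2 with Timp4 and -0.66 for Timp2 with Timp3. Timp1 followed none of them closely, with r of 0.40 for Timp2, -0.29 for Timp3 and -0.54 for Timp4. Over the 9 libraries not labelled 2X cytokine, r was 0.89 for Timp3 with Timp4, -0.86 for Timp2 with Timp4, -0.71 for Timp2 with Timp3, -0.08 for Timp1 with Timp2, -0.24 for Timp1 with Timp4 and -0.50 for Timp1 with Timp3, so the values for Timp1 depended on those 3 libraries, in both directions. All pairs share the same 12 libraries and their groups, and these values are descriptions.

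Among 10316 protein-coding genes with a mean of at least 10 CPM, those most like Timp1 over the 12 libraries were Sfrp4, a secreted Wnt antagonist, at r of 0.97, Slc39a14, a zinc and iron transporter, Hmox1, which degrades heme, and Erap1, a peptide-trimming aminopeptidase, at 0.94 each, then Nme2 at 0.92 and Prg4, which encodes lubricin, at 0.91. Sfrp4 had 66.2 ± 37.9 CPM in libraries labelled 2X cytokine and 297 ± 96.3 CPM in those labelled 2X PBS (SD, n = 3 each). Without the libraries labelled 2X cytokine its r with Timp1 was 0.86 over 9 libraries, and the others of these 6 genes had 0.71 (Prg4) to 0.87 (Erap1). Those most like Timp4 were Gdf10, a TGF-β family ligand, and Pla2g7, a secreted phospholipase, at 0.99 each, followed by Elmo2, Haghl, Gpm6b and Dpy19l3 at 0.99. Gdf10 had 918 ± 183 CPM in libraries labelled 2X cytokine and 536 ± 115 CPM in those labelled 2X PBS. For Timp2 the first was Abhd2 at 0.98, and for Timp3 it was Bicd2 at 0.95.

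The proteinases that TIMPs inhibit were read in the same libraries. The lists of MMPs, ADAMs, ADAMTS genes, TIMP partners, plasminogen activation, promoter factors and neighbours held 76 tested genes. In the fit of 12 libraries, 0 of 76 passed for 2X cytokine against 2X PBS with edgeR. Before adjustment 11 of the 76 were under 0.05, against 1402 of all 14490 genes. With DESeq2, 3 passed, against 104 of all genes. In the fit of the 6 libraries labelled 2X, 14 of 69 passed, against 7.74% of all genes, and 13 of the 14 were lower in libraries labelled 2X cytokine, the direction in which 5.31% of all genes passed. In the other 4 comparisons, 0 of 76 passed with edgeR on 12 libraries or with DESeq2. Before adjustment 4 to 8 of the 76 were under 0.05 there, against 754 to 1015 of all 14490 genes. The proteinase and partner results that follow for the 2X pair are from the fit of 6 libraries. Among the 14, Mmp3, Mmp9, Mmp12 and Adam8 failed the low count filter in the fit of libraries labelled 2X cytokine and 1X cytokine. They entered the fit of 6 through their level in libraries labelled 2X PBS. Their lower direction was thus fixed by the filter, and their passing is no support. Mmp19 and Plaur fell to 1.20 and 1.80 CPM in 2X cytokine replicate 3. Both also needed libraries labelled 2X PBS to pass the filter in the fit of 6, so their passing is no support either.

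Of the MMPs, 4 of 12 tested passed as lower and none as higher. The direction was fixed by the filter for Mmp3, Mmp9 and Mmp12, and Mmp19 also needed libraries labelled 2X PBS to enter. Mmp3, the stromelysin that activates other pro-MMPs, had 0.714, 1.88 and 0.600 CPM in libraries labelled 2X cytokine, against 83.8, 51.2 and 57.4 CPM in those labelled 2X PBS, a log2 fold change of -5.88 ± 0.34 (adjusted p = 1.08e-06, edgeR). Its counts in libraries labelled 2X cytokine lie near the floor of 3, so the size depends on the prior count. Mmp9, the gelatinase bound by TIMP1, fell by 3.37 in log2, to 2.82 ± 1.96 CPM in libraries labelled 2X cytokine against 29.9 ± 11.9 CPM in those labelled 2X PBS. Mmp12 fell by 2.70 and Mmp19 by 1.82. Mmp12 was at 0.754 CPM in 2X cytokine replicate 2, under the floor of 1.16 CPM there. Mmp9 and Mmp19 were at 1.20 CPM in 2X cytokine replicate 3, near its floor of 0.924 CPM. The sizes for these genes thus also rest on few counts. Mmp14, the membrane partner of TIMP2, had 49.0 ± 1.62 CPM in libraries labelled 2X cytokine and 53.6 ± 7.11 CPM in those labelled 2X PBS and did not pass. The median log2 fold change of the 12 MMPs was -0.43, against 0.01 over all genes.

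**Figure D5:**
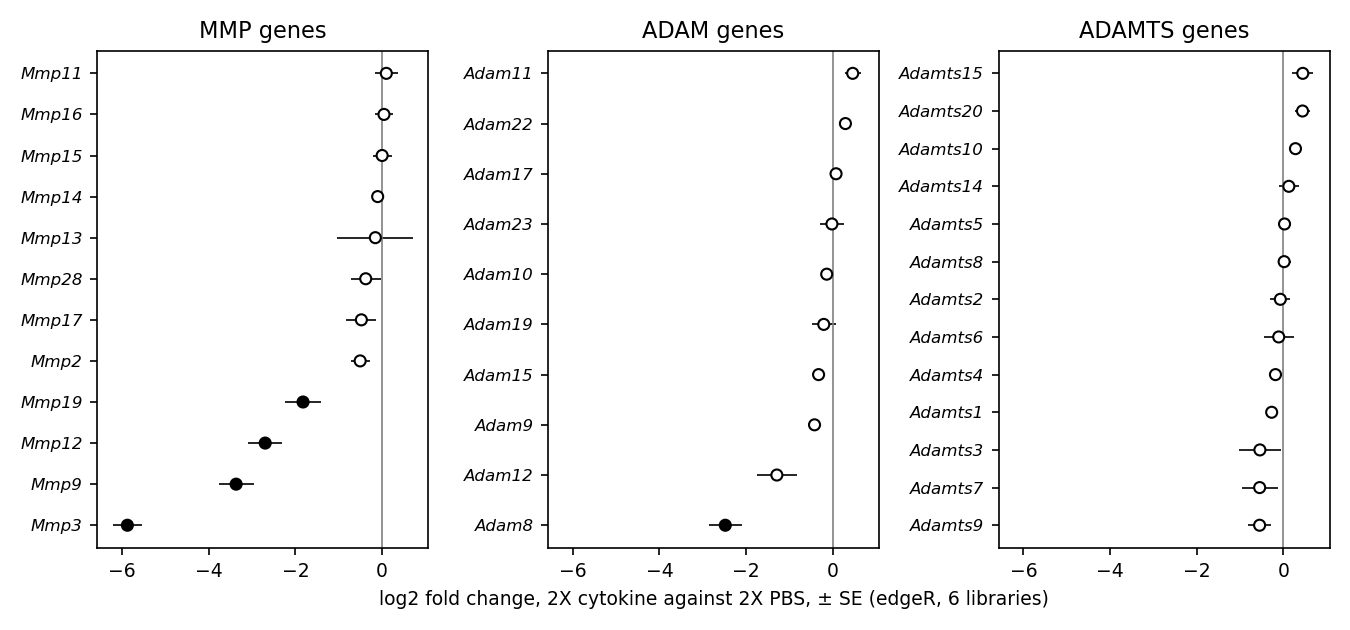
Log2 fold change ± SE (x axis) of 2X cytokine against 2X PBS for the tested MMP, ADAM and ADAMTS genes, from edgeR on the 6 libraries labelled 2X; filled points passed an adjusted p of 0.05. Mmp3 at -5.88, Mmp9 at -3.37, Mmp12 at -2.70, Mmp19 at -1.82 and Adam8 at -2.48 passed, and no ADAMTS gene did. Mmp3, Mmp9, Mmp12 and Adam8 entered that fit through their level in libraries labelled 2X PBS, and Mmp19 also needed those libraries to enter.

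Of 10 ADAM genes tested, Adam8, known from leukocytes, fell by 2.48 in log2, a direction fixed by the filter. Adam10 and Adam17, the shedding enzymes, did not pass, with Adam17, a TIMP3 target, at 80.2 ± 2.89 CPM in libraries labelled 2X cytokine and 76.8 ± 4.05 CPM in those labelled 2X PBS. None of 13 ADAMTS genes passed. Adamts1, the most abundant of them, had 862 ± 161 CPM in libraries labelled 2X cytokine and 1049 ± 135 CPM in those labelled 2X PBS. Of 9 TIMP partners and other MMP inhibitors, 4 fell. They were Cd63, the cell-surface partner of TIMP1, by 0.34, Efemp1, a matrix protein that binds TIMP3, by 0.88, A2m, a general proteinase trap, by 0.50, and Cd44, the hyaluronan receptor, by 1.34. Of 7 genes of plasminogen activation, Plat fell by 0.48, Plaur by 2.24 and Anxa2 by 0.53. Plaur needed libraries labelled 2X PBS to pass the filter, so its passing is no support. Of 13 factors studied at the Timp1 promoter, Stat3 fell by 0.96 and Fosb rose by 0.44, and none of the 5 neighbour genes tested passed.

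Mmp3 and Mmp9 also divided the 1X groups by library. Mmp3 had 85.0, 4.61 and 1.65 CPM in libraries labelled 1X cytokine, against 16.0, 105 and 74.2 CPM in those labelled 1X PBS. Mmp9 had 44.2, 0 and 1.10 CPM in libraries labelled 1X cytokine, against 1.14, 104 and 96.0 CPM in those labelled 1X PBS. In 1X PBS replicate 1, Timp1 was thus at the level of its group while Mmp9 was near the floor of that library, 1.08 CPM.

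Markers of other cell types moved with the 2X comparison as well. In the 6-library fit, 5.31% of all genes passed as lower in libraries labelled 2X cytokine and 2.43% as higher. There, 2 of 3 tested neutrophil markers and 3 of 4 monocyte and macrophage markers passed as lower. Their sums ran from 13.6 to 372 TPM and from 18.1 to 97.9 TPM in libraries labelled 2X cytokine, against 773 to 1002 TPM and 446 to 473 TPM in those labelled 2X PBS. Whether these neutrophil, monocyte and macrophage markers entered the fit only through their level in libraries labelled 2X PBS was not tested. Their passing is therefore no support. Of the mural and fibroblast markers 3 of 7 were lower, with sums of 592 to 1071 TPM in libraries labelled 2X cytokine against 1258 to 1354 TPM in those labelled 2X PBS, and of the oligodendrocyte lineage 4 of 5 were higher, with sums of 2202 to 2956 TPM in libraries labelled 2X cytokine against 938 to 1612 TPM in those labelled 2X PBS. Of the ependymal markers 2 of 4 were higher, with sums of 762 to 986 TPM in libraries labelled 2X cytokine against 544 to 728 TPM in those labelled 2X PBS. Of the microglial markers 1 of 6 was lower, with sums of 265 to 458 TPM in libraries labelled 2X cytokine against 398 to 579 TPM in those labelled 2X PBS. None of these markers was at 0 in all libraries of either group. No tested endothelial, neuron, choroid plexus or erythrocyte marker passed in that fit. The erythrocyte sums were 8788 to 43931 TPM in libraries labelled 2X cytokine against 1639 to 12202 TPM in those labelled 2X PBS. Mmp9 and Adam8 are known from neutrophils and Timp1 from fibroblasts, and the part of these cells in the Timp and proteinase values was not tested.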

How the data were processed

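RNA was measured in 12 SMART-Seq2 libraries of sorted astrocytes, grouped by title. Per the labels' protocols, the authors assigned reads to the transcriptome of GRCm38 by kallisto 0.46.1, a program that shares ambiguous reads between transcripts by a model. Each deposited file lists 142604 transcripts with an estimated count, which is not scaled between libraries, and a TPM value, which sums to one total per library, per the file headers. The deposited effective length, in bases, is another value and was used only as an offset in an alternative fit. Per the labels' protocols, the authors tested genes with DESeq2; their results were not used here.

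Estimated counts were summed per gene, rounded, and fitted in R 4.3.3 by the quasi-likelihood method of edgeR 4.0.16, after filterByExpr and TMM scaling, with 1 coefficient per group over all 12 libraries, Benjamini-Hochberg adjustment over 14490 genes and a threshold of 0.05. The 5 comparisons were the 4 pairs of groups given and the difference between the 2X and the 1X cytokine response. The standard error is the size of the log2 fold change over the root of F. CPM uses the scaled totals, and TPM was summed over transcripts. Library totals ran from 1878418 to 5521679 estimated counts, so a floor of 3 counts is 0.543 to 1.60 CPM, which covers counting error only. Any 2 replicates of a group differed by more than counting noise, with a chi-square of 3.39 to 52.8 per degree of freedom. The labels name no separate animals, so the p-values reflect a spread among libraries that may be technical.

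The results were recomputed under RLE scaling, DESeq2 1.42.0, no low count filter, an effective length offset, a replicate block, fits of each pair of groups by itself, left-out libraries, and limma-trend (limma 3.58.1) with a pseudocount of 1 or 0.1 on log2 TPM, for genes with a mean of at least 1 TPM and for all genes. The members, lists and alternatives were chosen with earlier results of these data known, and the procedure was tested on simulated counts. The named genes are the members, the list genes past the threshold in either fit or among the 4 highest in mean TPM of a list, the 6 genes most like each member by Pearson's r of log2(CPM + 0.5) with clone names left out, Gfap, Lcn2 and the cell type markers; some are given only as counts. Windows are RefSeq sequences and gene positions are GENCODE M21 positions of identical versioned identifiers, which 98.1% of the genes had.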

Additional observations from a re-analysis of the deposited data

How the results depend on the processing

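For Timp2 to Timp4, 289 of 327 recomputed fold changes kept their direction and side of the threshold, 29 changed sign and 9 came to pass it with the same sign. Most of those 9 came from leaving out replicate 1 of both 1X groups, a choice made from their values, so they are no support. In that setting Timp4 for the difference of responses both changed sign and passed, which is no support either. For Timp1, described with no threshold, 106 of 109 moved by less than the spread between replicates. The sign of Timp1 held in every alternative in all 5 comparisons. For Timp1, leaving out 1 library gave -4.31 to -3.62 in 2X cytokine against 2X PBS, -0.996 to -0.24 in the 1X pair, -3.33 to -2.47 in 2X cytokine against 1X cytokine, 0.38 to 0.52 in 2X PBS against 1X PBS and -3.76 to -2.92 for the difference of responses. In 2X PBS against 1X PBS, limma-trend put it at 0.59 with a pseudocount of 1, with and without the TPM filter, and at 0.60 with 0.1. With a pseudocount of 1, limma-trend shifted the median of all genes by 0.18 there, by 0.13 in the 1X pair and by -0.11 for the difference.

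Members near 0 changed sign, and so did Timp4 for the difference of responses, at 0.47 in the fit of 12 libraries. Timp2 was at 0.031 in the 1X pair under limma-trend in all settings, -0.12 for the difference of responses under limma-trend in all settings and -0.0034 with the replicate block; leaving out 1 library gave -0.17 to 0.021 in the 2X pair, -0.34 to 0.028 in the 1X pair and -0.14 to 0.24 for the difference. Timp3 was at 0.039 in 2X cytokine against 1X cytokine under limma-trend in all settings; leaving out 1 library gave -0.24 to 0.070 there and -0.018 to 0.29 in 2X PBS against 1X PBS. Timp4, leaving out 1 library, gave -0.080 to 1.29 in the 1X pair, -0.21 to 1.16 in 2X PBS against 1X PBS, -0.55 to 0.80 for the difference and 0.63 to 0.80 in the 2X pair, where it was 0.73 and passed on the libraries of the comparison alone.

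Without replicate 1 of both 1X groups, Timp4 was 0.73 in the 2X pair, 1.59 in the 1X pair, 1.16 in 2X PBS against 1X PBS and -0.86 for the difference, Timp2 was -0.53 in the 1X pair and -0.65 in 2X PBS against 1X PBS, and Timp3 was 0.63 in the 1X pair. These libraries were chosen by their values.

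Counts of genes passing over all genes moved most. For 2X cytokine against 2X PBS, 5 passed with edgeR; 104 with DESeq2, 460 with no filter, 8 with limma-trend on all genes, 2 with the replicate block, 1065 on its libraries alone, 1042 without replicate 1 of both 1X groups, and 0 to 125 leaving out 1 library. For the 1X pair, 0 passed (783 at an unadjusted p under 0.05); 3 with DESeq2, 251 with no filter, 6, 5 and 8 with limma-trend, 3489 without both libraries and 0 to 1141 leaving out 1. For 2X cytokine against 1X cytokine, 4 passed; 2 with DESeq2, 193 with no filter, 9 with limma-trend at 0.1 and on all genes, 0 with the replicate block, 0 on its libraries alone and 0 to 3 leaving out 1. For 2X PBS against 1X PBS, 0 passed (914 unadjusted); 12 with DESeq2, 97 with no filter, 1 and 3 with limma-trend, 2759 without both and 0 to 1116 leaving out 1. For the difference, 0 passed (754 unadjusted); 13 with DESeq2, 70 with no filter, 1, 2 and 1 with limma-trend, 1386 without both and 0 to 17 leaving out 1. The causes were not tested.

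The replicate numbers share no source that the labels name, and same-numbered libraries of different groups had correlations of -0.75 to 0.29, with 2 of 12 libraries closest to one of their own number, so the block is given only as an alternative. At 1878418 to 5521679 counts, genes near 1 CPM, such as Mmp3 in libraries labelled 2X cytokine, rest on a few counts each.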
